A study of Homo sapiens with 10 samples.

Results

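The chaperones of the endoplasmic reticulum (ER) and the mitochondrion were examined for peaks of HSF1, the factor that switches on heat shock genes. The 6 genes were HSPA5, HSP90B1, HYOU1 and SERPINH1 for the ER and HSPA9 and TRAP1 for the mitochondrion. They were chosen by function, but with earlier results of these data known. A gene counted as reached when a called peak overlapped the window of 5 kb either side of its hg19 start. The windows held 8 of the 8124 peaks listed in the series, in 2 of its 6597 regions, a region being a set of overlapping peaks of any list joined together. Both regions lay at a start, that of SERPINH1 and that of HSPA9, and the other 4 genes had no peak in their window in any list.

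HSF1 was mapped by chromatin immunoprecipitation and sequencing in HCT116, an established human colon cancer line, with 5 µg of antibody to HSF1. The cells were WT or FBXW7 KO, and FBXW7 is the subunit that selects proteins for a ubiquitin ligase. Each line was left untreated (1 library each) or held at 42 °C for 1 h (2 libraries each, replicates 1 and 2), and each library has its own peak list. The labels do not say how FBXW7 was removed, whether the KO line is 1 clone, or whether replicates came from separate cultures, so a difference between replicates may be technical. Read depth is unknown for every list. The KO lists held 1566 to 3257 peaks and the WT lists 79 to 225, and the narrowest WT peak was 561 bp wide while median KO widths were 155 to 181 bp. A gene without a peak in a list therefore fell below the caller's limit there, and this does not show that HSF1 was missing.

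As background, heat shock proteins help other proteins to fold, and each compartment of the cell has its own set. HSF1 is activated when proteins unfold in the cytosol and nucleus, and it binds heat shock elements, repeats of the unit GAA in alternating orientation. The ER has a separate alarm, the unfolded protein response, in which the factor ATF6 acts through ER stress elements in the promoters of ER chaperones. Mitochondrial chaperones are encoded in the nucleus and carried into the organelle after synthesis.

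The promoters are shown first because the genes with and without a peak differed in the elements they carried. The sequences are RefSeq's, build GRCh38.p14, matched by gene symbol (6 of 6 genes), and positions count from the RefSeq start at +1. The peaks are in hg19, so the sequences were not laid over them, and the RefSeq start need not be the same base as the hg19 start used for the window. Each stretch reads 5′ to 3′ along its gene, with the fixed bases of an element in capitals. In SERPINH1 and HSPA9 the capitals mark heat shock elements (GAANNTTC or TTCNNGAA). In HSPA5 and HSP90B1 they mark the ER stress element (CCAAT, then any 9 bases, then CCACG, or its reverse complement), and in HYOU1 the ER stress element II (ATTGG, then any 1 base, then CCACG, or its reverse complement). TRAP1 had none of these and is printed for comparison. All elements were searched on both strands as exact matches of the fixed bases, so imperfect copies were not counted in any gene.
SERPINH1, chr11:75562133-75562252, plus strand, -120 to -1: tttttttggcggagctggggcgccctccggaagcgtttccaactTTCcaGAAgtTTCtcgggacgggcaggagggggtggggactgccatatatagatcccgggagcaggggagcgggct
HSPA9, chr5:138575392-138575511, minus strand, -110 to 10: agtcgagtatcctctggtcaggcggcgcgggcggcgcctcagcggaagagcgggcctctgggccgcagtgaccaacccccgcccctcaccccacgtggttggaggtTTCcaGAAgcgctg
HSPA5, chr9:125241344-125241463, minus strand, -120 to -1: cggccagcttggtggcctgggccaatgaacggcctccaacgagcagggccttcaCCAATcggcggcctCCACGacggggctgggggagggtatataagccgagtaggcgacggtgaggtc
HSP90B1, chr12:103930200-103930409, plus strand, -210 to -1: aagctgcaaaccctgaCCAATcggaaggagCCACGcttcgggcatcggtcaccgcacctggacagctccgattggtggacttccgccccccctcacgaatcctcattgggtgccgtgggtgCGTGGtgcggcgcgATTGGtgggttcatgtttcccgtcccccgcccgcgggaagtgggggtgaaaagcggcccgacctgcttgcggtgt
HYOU1, chr11:119057206-119057405, minus strand, -200 to -1: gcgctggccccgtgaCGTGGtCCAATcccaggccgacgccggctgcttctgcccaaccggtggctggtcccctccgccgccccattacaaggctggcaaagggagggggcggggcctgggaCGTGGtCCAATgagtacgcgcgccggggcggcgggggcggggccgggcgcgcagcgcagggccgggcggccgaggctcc
TRAP1, chr16:3717525-3717644, minus strand, -120 to -1: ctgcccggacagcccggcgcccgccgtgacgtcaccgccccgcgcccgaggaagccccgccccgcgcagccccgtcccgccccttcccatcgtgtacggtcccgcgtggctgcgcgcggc

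The genes whose window from 250 bases before to 50 bases after the start held a heat shock element were SERPINH1 and HSPA9, the same 2 that had an HSF1 peak. In SERPINH1, 2 overlapping elements at -76 to -69 and -71 to -64 made a run of 3 alternating units. SERPINH1 has 2 RefSeq starts 220 bp apart: the window of the upstream start held this run, and that of the other start held none. In HSPA9 a single element of 2 units spanned the start, from -4 to +4, and no further unit adjoined it. A pair of units is a common sequence, present in 4737 of the 35116 RefSeq promoter windows (13.5%), whereas 172 windows (0.490%) held 3 units. A match of 2 units as in HSPA9 is thus common, that of 3 units as in SERPINH1 is rare, and neither is shown to be bound.

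The ER genes without a peak each carried an element of the ER's own stress pathway. HSPA5, which encodes the ER HSP70 known as BiP, had 1 exact match to the ER stress element, at -66 to -48. HSP90B1, the ER form of HSP90, had 2, at -194 to -176 and, on the minus strand, at -89 to -71. HYOU1, the large ER relative of HSP70, had 2 copies of the ER stress element II on the minus strand, at -185 to -175 and -79 to -69. These sequences were rare, at 27 windows (0.0769%) for the first element and 19 windows (0.0541%) for the second. SERPINH1 held neither, and none of the searched elements was found in the window of TRAP1, the mitochondrial HSP90. The match between elements and peaks rests on 6 genes and was not tested.

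**Figure D1:**
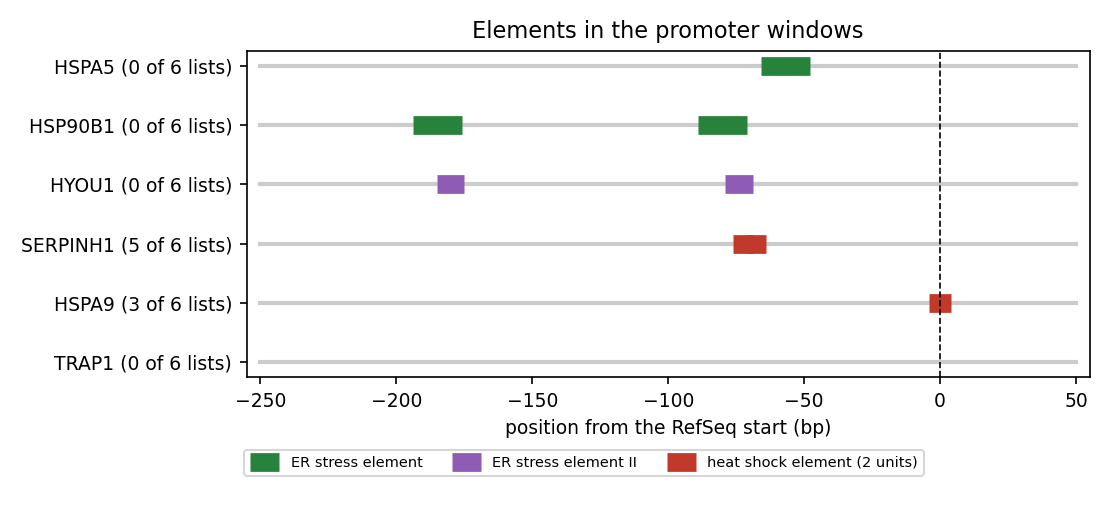
Positions of the searched elements in the RefSeq promoter window of each gene (grey line, horizontal axis in bp from the start; upstream start for SERPINH1), with the number of the 6 HSF1 lists that had a peak in parentheses. Red bars, the heat shock elements, occur in SERPINH1 (5 lists) and HSPA9 (3 lists), and green and purple bars, the ER stress elements, in HSPA5, HSP90B1 and HYOU1 (0 lists).

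The other genes of both pathways were described by promoter alone, since no annotation of hg19 was used. Of 25 further ER and mitochondrial folding genes, 21 had a window in the table. Among the 13 ER genes found, 2 held a heat shock element of 2 units (CANX and SIL1) and none held 3 units. The ER stress element was found in at least 1 window of 4 of these 13, CALR, CANX, PDIA6 and CRELD2, and the ER stress element II in SDF2L1 and HERPUD1. Among the 8 mitochondrial genes found, HSPD1, which encodes the chaperonin HSP60, was the 1 with a heat shock element, and 1 of its 2 windows had 4 units in a row. It is shown because it was the longest run among the genes examined.
HSPD1, chr2:197500063-197500090, minus strand, -250 to -223: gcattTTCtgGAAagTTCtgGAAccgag
HSPE1, the partner of HSPD1, and the 6 other mitochondrial genes, GRPEL2, DNAJA3, CLPX, LONP1, HSCB and TIMM44, held none of the searched sequences in their own windows. The HSPD1 run, at -245 to -228, lay near the upstream edge of its window, and sequence beyond a window was not searched. A window without a match, such as that of HSPE1, therefore does not show that the whole promoter lacks the element. Heat shock elements were thus found in 3 of the 21 further genes, against 2 of the 6 chaperones examined for peaks and 4417 of all 27305 gene symbols in the table (16.2%). The share in the further genes was near that of all genes.

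By list, 2 of the 6 genes were reached in each of the 3 KO lists, and 1 in untreated WT. After heat shock, WT replicate 1 reached none of them and replicate 2 reached 1. As a background, the chromosomes were divided into 290425 tiles of 10 kb, and 2.07% had a peak in at least 1 KO list, 0.126% in all 3 KO lists and 0.122% in at least 1 WT list. Against these shares, 2 of 6 genes had a peak in at least 1 KO list and in all 3, and 1 of 6 in at least 1 WT list. Tiles cover all sequence and not gene starts, where peaks may be more common, so the shares describe the lists and are no test. By compartment, 1 of 4 ER genes and 1 of 2 mitochondrial genes were reached.

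SERPINH1 encodes HSP47, the ER chaperone of collagen, and was the gene reached in the most lists, 5 of 6. All 5 peaks covered the start and shared chr11:75273117-75273349 (233 bp, hg19). The authors' scores were 375 in untreated KO and 147 and 360 in KO replicates 1 and 2 after heat shock. In WT they were 70.6 untreated and 102 in replicate 2 after heat shock, so that a minimum score of 100 would remove the untreated WT peak. WT heat shock replicate 1 had no peak there, although its list of 225 peaks was the longest of the WT lists, and its nearest peak was centred 11.3 Mb away. The peak was thus called in both lines and with and without heat shock, though only 1 of the 2 heat-shocked WT libraries had it.

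Scores are not known to be on 1 scale across libraries, so the rank within each list was compared. In KO the SERPINH1 peak ranked 106 of 2866 untreated, and 148 of 1566 and 120 of 3257 in heat shock replicates 1 and 2. As a share of the list these ranks were 3.70%, 9.45% and 3.68%. Without the widest 5% of peaks in each list the ranks became 21, 85 and 32, so many of the peaks ranked above SERPINH1 were wide ones. The heat shock mean of 6.57% ± 4.08 (SD, n = 2) differed from the untreated value by less than the spread between replicates. In WT the peak ranked 41 of 79 untreated (51.9% of the list) and 28 of 131 in heat shock replicate 2 (21.4%), so there is no spread to set this difference against. With 1 untreated library in each line no test was made.

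HSPA9 encodes mortalin, the HSP70 of the mitochondrial matrix, which also pulls incoming proteins through the inner membrane. Each KO list had a peak at its start, and no WT list did. The 3 peaks covered the start and shared chr5:137910966-137911250 (285 bp, hg19). Scores were 229 in untreated KO and 160 and 727 in KO heat shock replicates 1 and 2, so the heat shock libraries lay on either side of the untreated one. The peaks of untreated KO and of heat shock replicate 2 were among the widest 5% of their lists, and with such peaks left out only that of replicate 1 remained. The ranks were 199 of 2866, 130 of 1566 and 52 of 3257, or 6.94%, 8.30% and 1.60% of each list. Their heat shock mean of 4.95% ± 4.74 (SD, n = 2) differed from the untreated 6.94% by less than that SD. RefSeq places the start of an uncharacterised gene, LOC105379193, within 5 kb of that of HSPA9, so a peak in this window is not assigned to 1 gene by position alone.

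**Figure D2:**
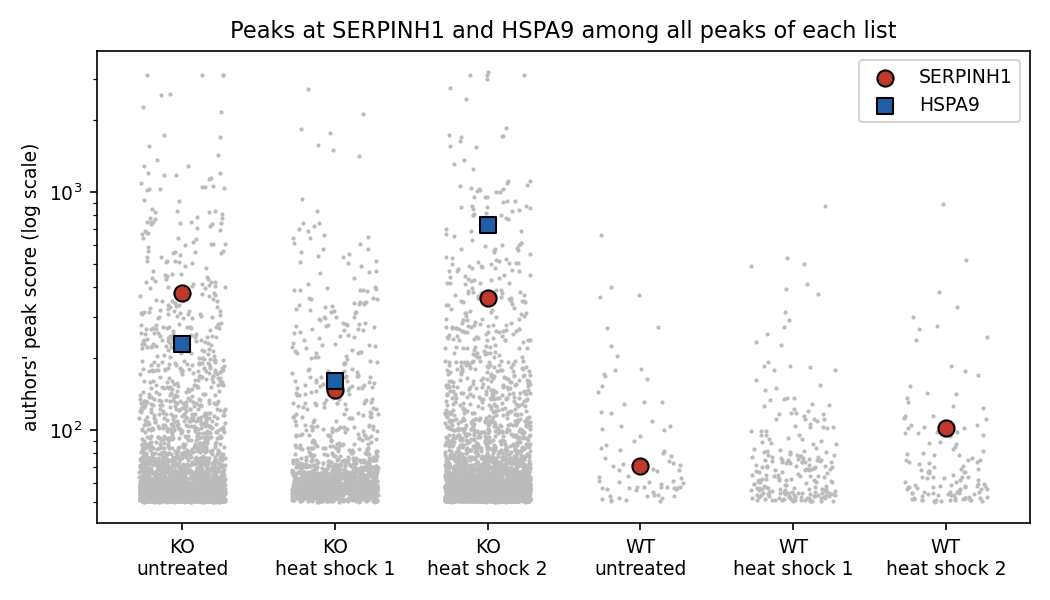
Scores of all peaks in each list (grey points, log axis) with the peaks at SERPINH1 (red circles) and HSPA9 (blue squares). SERPINH1 was above HSPA9 in untreated KO (375 and 229) and below it in KO heat shock replicate 2 (360 and 727), and no WT list has a blue square.

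Within a library the scores share a scale, so the genes were set against each other in each KO list. SERPINH1 scored 1.64 times HSPA9 in untreated KO, 0.916 times in heat shock replicate 1 and 0.495 times in replicate 2. SERPINH1 was thus above HSPA9 in the untreated list and below it in both heat shock lists, though the genes were close in replicate 1. With 1 untreated library, a change with heat shock was not tested. Both peaks scored above the median of every KO list, which was 58.1 to 59.6.

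The lack of an HSPA9 peak in WT was set beside other regions that KO cells carried in every list. Of 355 regions with a peak in all 3 KO lists, 121 (34.1%) also had a peak in a WT list. The share was 30 of 181 (16.6%) where the lowest of the KO scores was 50 to 100, 30 of 91 (33.0%) at 100 to 200, 39 of 60 (65.0%) at 200 to 500 and 22 of 23 (95.7%) at 500 or more. HSPA9 (lowest KO score 160) and SERPINH1 (147) fell in the same class of 100 to 200, the former without and the latter with a WT peak. Both of these lowest scores came from KO heat shock replicate 1, and scores of separate libraries may differ in scale, so the class is no measure of strength over the KO lists. Scores in untreated KO and KO heat shock replicate 2 were 229 and 727 for HSPA9, and 375 and 360 for SERPINH1. The classes were chosen after the values were seen, and why WT had no HSPA9 peak was not tested. List length and resolution cannot be told apart from the line. HSPA9 was 1 of 234 regions with all 3 KO peaks and no WT peak, and came 38th by its lowest score, against a median of 77.4 for these regions.

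The pattern of SERPINH1 was rarer, though the WT lists held only 79 to 225 peaks, so few regions could have it. The SERPINH1 region was 1 of 5 with a peak in every list except WT heat shock replicate 1. It came second of these by its lowest score, 70.6 in untreated WT. That minimum was taken over KO and WT libraries, whose scores may differ in scale. The other WT lists, untreated and replicate 2, had 44 regions in common, and replicate 1 held 39 of these. SERPINH1 was among the 5 that replicate 1 lacked, and these are the same 5 regions as above. The lowest score in that list was 50.3, and how far below it SERPINH1 fell is not known.

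Likeness was measured as the mean absolute difference in log10 rank, among regions with a peak in exactly the same lists. By this measure the region nearest to SERPINH1 was chr7:142152713-142154101 (difference 0.292 over 5 lists), which ranked 58, 61 and 50 in the KO lists (untreated first), 45 in untreated WT and 69 in WT heat shock replicate 2. The region nearest to HSPA9 was chr19:42721581-42722234 (difference 0.101 over 3 lists), with ranks of 189, 133 and 97 in untreated KO and KO heat shock replicates 1 and 2. The match was closer for HSPA9, whose lists were shared by 234 regions against 5 for SERPINH1.

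The peaks were centred near the given hg19 starts in each list that had one. Centres at SERPINH1 lay 14 bp downstream of the hg19 start in untreated KO, and 33 and 54.5 bp in KO replicates 1 and 2 after heat shock. In WT they lay 47.5 bp downstream untreated and 57 bp in replicate 2 after heat shock. All 5 fell within 43 bp of each other, so the WT and KO centres overlapped. Centres at HSPA9 lay 3.5 and 8 bp upstream in untreated KO and KO heat shock replicate 1 and 40.5 bp downstream in replicate 2. The given starts are rounded to 100 bp, which is coarser than these offsets. SERPINH1 has 2 RefSeq starts 220 bp apart, and which of them the peaks lay on was not determined.

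Widths at SERPINH1 did not overlap between the lines. SERPINH1 peaks were 425, 233 and 480 bp wide in the KO lists (untreated, then heat shock replicates 1 and 2). In WT they were 1458 bp wide untreated and 1387 bp in heat shock replicate 2. No WT list held any peak narrower than 561 bp, which exceeds each KO width at SERPINH1. The median width was 1656 bp for untreated WT, with 1468 and 1443 bp for WT heat shock replicates 1 and 2. The largest median of a KO list was 181 bp. The gap at SERPINH1 therefore follows the lists as a whole and is not particular to this gene. HSPA9 peaks were 514, 285 and 632 bp in the same order of KO lists. At both genes KO heat shock replicate 1, the shortest KO list, gave the narrowest and the lowest-scoring peak of the KO lists. Its part in the comparison with untreated KO was not tested beyond leaving it out: replicate 2 alone still put SERPINH1 at the untreated share of its list (3.68% and 3.70%) and HSPA9 at a smaller share (1.60% and 6.94%).

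**Figure D3:**
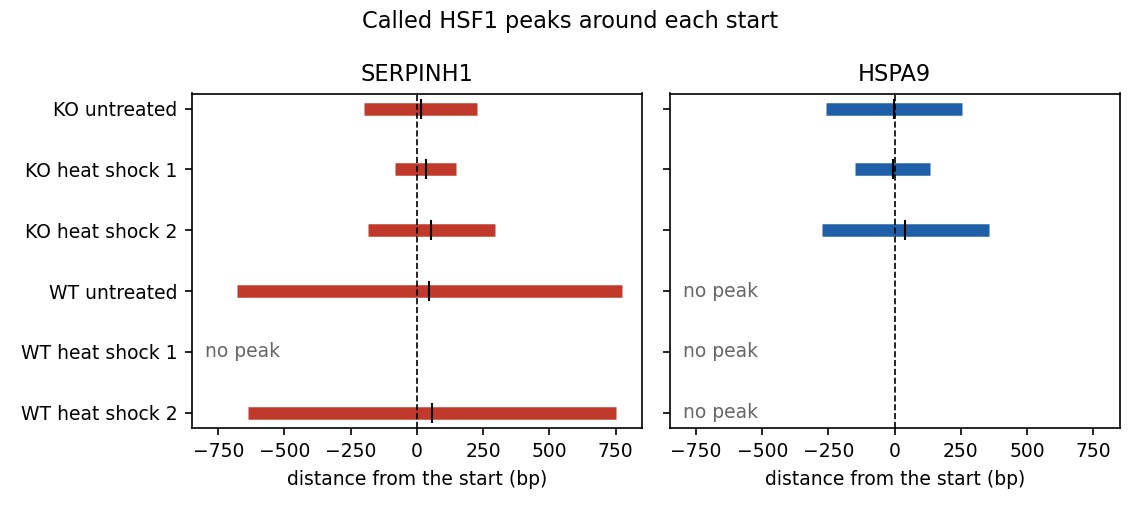
Extent of each called peak at SERPINH1 (red) and HSPA9 (blue), in bp from the hg19 start along the gene (dashed line), 1 row for each list, with a black tick at the peak centre. Every peak covers the start, WT peaks at SERPINH1 (1387 and 1458 bp) are wider than KO peaks (233 to 480 bp), and 4 rows have no peak. No WT list held any peak narrower than 561 bp, so this gap is not particular to SERPINH1.

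The remaining 4 genes had no peak within 5 kb, and the nearest peak was far off in most lists. Over their 12 gene and list pairs in KO, the nearest centre lay 21.6 to 930 kb from the start, with a median of 181 kb. Over the 12 pairs in WT the distance was 584 kb to 30.2 Mb, with a median of 10015 kb. The median gap between neighbouring peaks of a list was 232 to 629 kb in KO and 1.20 to 9.66 Mb in WT, which gives the scale on which these distances can be read.

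HSP90B1, whose product (GRP94) folds Toll-like receptors and integrins, was the closest of the 4 to a peak when all peaks were counted. Among peaks with a score of at least 100 it was the farthest, at 5414 kb from any list's nearest, and HYOU1 the closest, at 367 kb. Its nearest centres were 21.6 kb upstream in untreated KO (score 60.1), and 88.1 and 29.1 kb upstream in KO heat shock replicates 1 and 2 (scores 55.5 and 50.6). These were 3 separate peaks, each called in its own list, and the median scores of those lists were 58.6, 59.6 and 58.1. In WT the nearest lay 8.36 Mb away untreated and 21.1 and 8.36 Mb away in heat shock replicates 1 and 2. No list thus had a peak centred nearer than 21.6 kb to the HSP90B1 start.

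HYOU1, whose product (GRP170) also exchanges the nucleotide on BiP, had a KO heat shock replicate 2 peak 36.3 kb upstream with a score of 54.4. Its other KO distances were 196 kb untreated and 456 kb in heat shock replicate 1. The nearest WT peaks were 584 kb away both untreated and after heat shock in replicate 1, and 1.24 Mb away in replicate 2. HYOU1 lies on the same chromosome as SERPINH1, so this chromosome carried both a gene reached in 5 lists and 1 reached in none.

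HSPA5, a standard marker of the unfolded protein response, was 388 kb from the nearest centre in untreated KO, and 281 and 167 kb in KO heat shock replicates 1 and 2. In each WT list the nearest peak lay 10015 kb away. TRAP1 was 381, 930 and 125 kb from a centre in untreated KO and KO heat shock replicates 1 and 2, and 11.3 to 30.2 Mb in WT. Neither gene had a peak within 100 kb in any list, whereas HSP90B1 did in 3 and HYOU1 in 1.

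**Figure D4:**
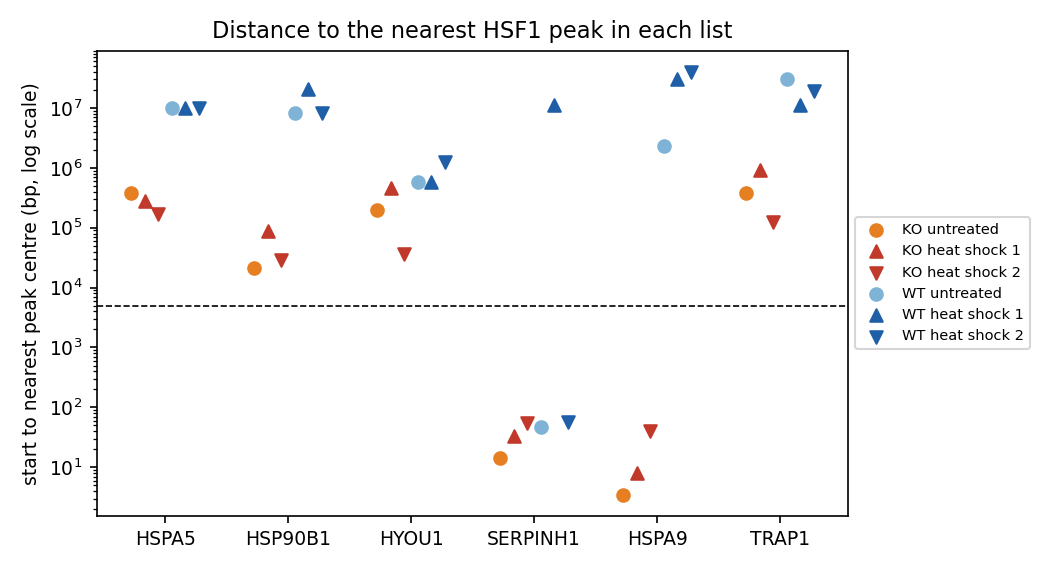
Distance from each hg19 start to the nearest peak centre (log axis, bp), 1 point for each list, with the 5 kb limit of the window as a dashed line. The 8 points below the line are those of SERPINH1 (5 lists) and HSPA9 (3 KO lists), and for every other gene the nearest point is at least 21.6 kb away.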

How the data were processed

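The 6 HSF1 libraries have 1 peak list each (chromosome, start, end, name and score). The 4 input libraries were not analysed here. The submitters' processing notes name CASAVA, Bowtie 0.12.7, MACS 1.4.2 and hg19, without roles or settings. Peaks were called for single libraries against the input of the same line and condition, per the file labels. The score of each peak is the authors' deposited value, of no stated scale, and was used to rank peaks within a list (ties take the best rank) and to filter.

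A peak counted for a gene if it overlapped the window of 5 kb either side of the hg19 start by at least 1 bp. Starts are read 1-based. Overlapping peaks of all lists were joined into regions. Members, gene lists and tests were chosen with earlier results of these data known, and the text names all 6 members, the region most like each of the 2 with a peak, and genes of a list of 25 other ER and mitochondrial genes, described by promoter only. The neighbour LOC105379193 was named after its position was seen. The classes of KO score were chosen after the values were seen. No p-value was computed. The lists give called peaks and no count per library at a gene without one, and each line has 1 untreated library. An exact 2-sided permutation test of 2 libraries against 2 cannot go below 1 in 3. The tiles ran from the first to the last peak on chromosomes 1 to 22 and X. Sequence elements were searched in RefSeq promoter windows of GRCh38.p14. Protein sequences were not used here. Counting, joining and motif search were tested on simulated data. Python 3.11.15, numpy 2.4.6, pandas 2.3.3 and matplotlib 3.10.9 were used.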

Additional observations from a re-analysis of the deposited data

How the results depend on the processing

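The counts of genes reached had the same values with windows of 1, 2 and 10 kb and with the peak centre required in the window; at 25 kb, the count in at least 1 KO list became 3, with HSP90B1. Without the widest 5% of peaks, the genes reached in all 3 KO lists fell from 2 to 1, as HSPA9 lost its peaks in untreated KO and KO heat shock replicate 2. SERPINH1 ranks then became 21, 85 and 32 in untreated KO and KO heat shock replicates 1 and 2, and 40 and 24 in untreated WT and WT heat shock replicate 2, and the HSPA9 rank in KO heat shock replicate 1 became 68. Leaving out 1 heat shock library gave 0 to 1 genes reached in all WT lists (1, SERPINH1, without WT heat shock replicate 1). A score of at least 100 removed the untreated WT peak at SERPINH1. With it, the nearest peak lay 1480 kb (HSPA5), 5414 kb (HSP90B1), 367 kb (HYOU1) and 381 kb (TRAP1) away, since fewer peaks remain. With all peaks kept and distance taken to the nearest edge, the values in the same order were 167, 21.5, 36.2 and 125 kb. Tiles of 2, 4, 20 and 50 kb held a peak in 0.475, 0.890, 3.91 and 8.70% (at least 1 KO list), 0.0284, 0.0526, 0.255 and 0.666% (all 3 KO lists) and 0.0410, 0.0624, 0.216 and 0.487% (at least 1 WT list). With 3 units required, 1 gene and 0.490% of promoter windows held a heat shock element. No paired analysis was possible because the results come from no test: a gene without a called peak has no value to pair. Unknown read depth limits every missing call.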
